A study of Zea mays with 6 samples.

Results

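A run of neighbouring genes on chromosome 9 of maize (*Zea mays*) was examined. Most of its genes had less measured transcript in *zmnac128 zmnac130* endosperm than in wild-type endosperm. The run covered the 349 gene IDs from Zm00001eb382790 to Zm00001eb386270. Its members were the IDs with a mean of at least 1 FPKM (fragments per kilobase of transcript, scaled to the size of the library) over the 4 distinct libraries and a wild-type mean below 500 FPKM. These rules kept 100 of the 349 IDs, out of 44303 in the deposited table. The stretch was chosen by its direction in this same comparison of genotypes, so the values below describe it. Calls and standard errors of single members come from a fit over the whole table and are descriptions too. No test of the stretch as a whole is given.

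The mutant was *zmnac128 zmnac130*, a double mutant that had lost the NAC transcription factors ZmNAC128 and ZmNAC130, collected as endosperm at 16 DAP (days after pollination). The wild type was endosperm of the same age. Its values are labelled NT, the study's abbreviation for nontransgenic siblings, while the sample titles say only wild type and name no growing year. By that abbreviation, both genotypes came from self-pollinated cobs of hybrids between the inbred B73 and the mutant in the inbred KN5585. Both then carry a segregating mixture of the 2 parental genomes. RNA came from several endosperms per genotype. The labels give 3 samples per genotype, but replicate 3 repeated the values of replicate 1 in each of the 44303 genes in both genotypes. Replicates 1 and 3 were therefore taken as 1 sample, and 2 libraries per genotype were compared. The library totals read from the steps of the FPKM values were 30696032 and 29312397 in *zmnac128 zmnac130*, against 28478576 and 26317317 in the wild type. The sources used here pair neither mutated gene with an ID, so their transcripts were not used to check the labels. Of 37 marker genes of endosperm cell types and neighbouring tissues, 2 could be matched to an ID. *bt2*, a starch synthesis gene of the starchy endosperm, had 106 and 82.9 FPKM in the mutant, against 696 and 518 FPKM in the wild type. *betl3*, a gene of the basal transfer layer, had 44.4 and 29.5 FPKM in the mutant, against 135 and 162 FPKM in the wild type. IDs were matched through accessions of the study's list of 243 highly expressed changed genes, which was partly chosen on these libraries. A marker on that list had already changed, so the fall of these 2 genes is no check of cell types. Both were lower in the mutant in all libraries, and their part in the values of the stretch was not tested. In a whole tissue, fewer cells of a type and less RNA per cell cannot be told apart.

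The maize endosperm stores starch and zein proteins, and NAC proteins are plant transcription factors that bind gene promoters. The progeny of a selfed hybrid inherit each chromosome region from one parent, from the other or from both, and maize inbreds differ in gene content, in sequence and in the level of many transcripts. Around the centromeres of maize chromosomes, genes are sparse and recombination is rare, so long runs of genes are inherited together. All reads were aligned to the B73 genome alone, so FPKM count only reads that align to it. Neither the parental origin of the transcripts nor the share of reads lost in alignment was measured here. Their part in the values below was not tested.

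The place of the stretch could be read from the few IDs that RefSeq accessions tie to coordinates of Zm-B73-REFERENCE-NAM-5.0. On chromosome 9 there were 10 such genes, and their ID order was that of their coordinates. One of them, Zm00001eb384280 (LOC100273421, an uncharacterized protein), is a member and lies at chr9:75842467-75845415. The nearest such genes outside the stretch were Zm00001eb377000, which starts at position 21339878, and Zm00001eb386720, which starts at position 97813793. Between them RefSeq holds 14.6 genes per megabase, against 29 over the rest of chromosome 9. The ID numbers ran at 13.4 and 11.1 steps per megabase to the left and right of Zm00001eb384280. They ran at 34.2 steps per megabase in the interval before these 3 genes and at 19.2 in the interval after them. The stretch thus lay in a gene-poor middle portion of the chromosome. The other 99 members are known here by ID alone, so they could not be grouped by function, and the reference held no sequence of the stretch.

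Most members had lower FPKM in the mutant. On the log2(FPKM + 1) scale, 72 of the 100 had a negative difference between *zmnac128 zmnac130* and wild type, while 49.5% of the 19082 tested genes had one. The median log2 fold change was -0.48 over the members, with quartiles of -1.24 and 0.06, and 0.01 over all tested genes. In 66 members, both mutant libraries lay below both wild-type libraries, and the same held for 37.2% of all tested genes. The opposite, both mutant libraries above both wild-type libraries, was seen in 20 members and in 38.4% of all tested genes. The genotypes overlapped in the remaining 14.

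The changes of the members spanned a wide range and were not one shift shared by all. Log2 fold changes ran from -4.12 to 2.12, and the median of their absolute size was 0.61, against 0.36 over all tested genes. A difference smaller than 0.25 either way was seen in 22 members and in 37% of all tested genes. Calls were made with limma and needed a log2 fold change beyond 1 in either direction, with a p adjusted over all tested genes below 0.05. Called lower in the mutant were 29 members, and 7.18% of all tested genes. Called higher were 4 members, and 6.43% of all tested genes. These counts depended on how weakly expressed genes were treated. With a pseudocount of 10 FPKM, 10 members were called lower and 2 higher and the median of the members was -0.18. Of the 19082 tested genes, 1.61% were then called lower and 305 genes higher. With a filter at a mean of 10 FPKM, 7 of the 37 members left were called lower and 2 higher and the median was -0.14. Of the 8396 genes left in the whole table, 5.07% were called lower and 510 genes higher. In both settings the called-higher share of the members was near that of all genes fitted. In 12 members the mutant mean was under 10% of the wild-type mean, which held for 2.12% of all tested genes. No member had a wild-type mean under 10% of its mutant mean (0 of 100), which held for 1.45% of all tested genes.

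**Figure D1:**
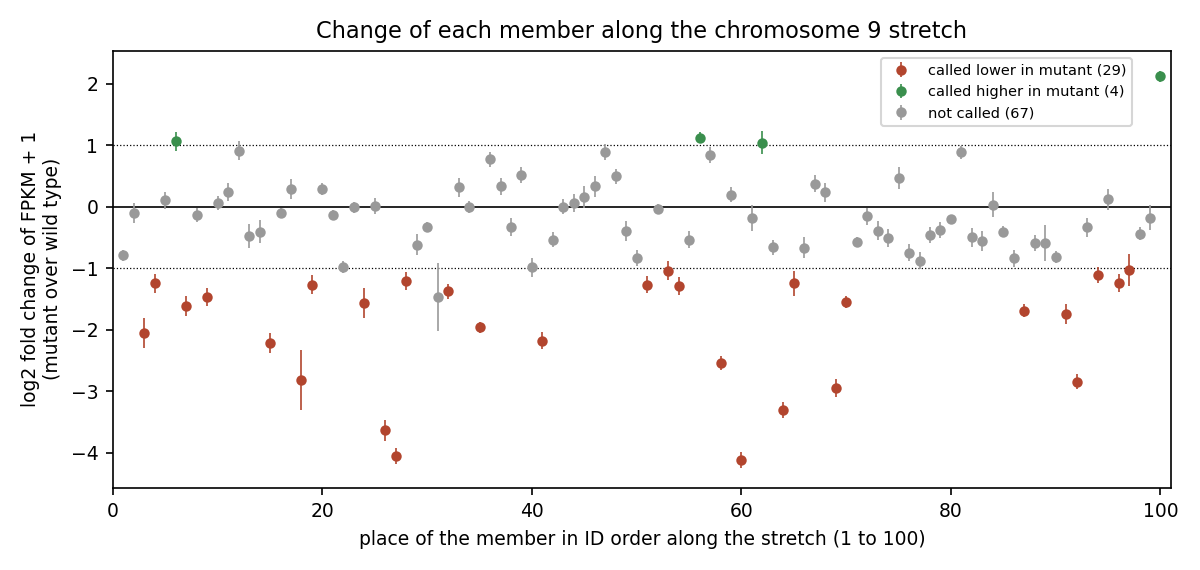
Log2 fold change of FPKM + 1 (*zmnac128 zmnac130* over wild type, vertical axis) of the 100 members in the order of their IDs (horizontal axis). Points are limma estimates from 2 libraries per genotype, bars are standard errors, and dotted lines mark a log2 fold change of 1 either way. The 29 members called lower lie from place 3 to place 97, between members near 0 and the 4 called higher.

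The members that fell furthest had FPKM near 0 in the mutant. Zm00001eb385280 had 0.145 and 0.228 FPKM in *zmnac128 zmnac130*, against 19.7 and 19.6 FPKM in the wild type (log2 fold change -4.12, SE 0.13). Its recovered reads were 10 and 15 in the mutant, against 1264 and 1158 in the wild type. Zm00001eb384030 had 0.162 and 0.221 FPKM in the mutant, against 18.2 and 19.5 FPKM in the wild type (log2 fold change -4.06, SE 0.13). Both genes thus kept about 1% of their wild-type level (0.948% and 1.02%). Zm00001eb384020, whose ID is next to that of Zm00001eb384030, had 0.506 and 0.204 FPKM in the mutant, against 14.6 and 17.0 FPKM in the wild type (log2 fold change -3.64, SE 0.17). Zm00001eb385420 had 0.203 and 0.212 FPKM in the mutant, against 11.4 and 10.6 FPKM in the wild type (log2 fold change -3.31, SE 0.13). In these 4 genes the replicates of each genotype lay close together compared with the gap between genotypes.

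Other large falls followed. Zm00001eb386100 had 1.12 and 1.23 FPKM in the mutant, against 14.7 and 14.7 FPKM in the wild type (log2 fold change -2.85, SE 0.12). Zm00001eb385250 had 2.48 and 2.35 FPKM in the mutant, against 18.3 and 19.6 FPKM in the wild type (log2 fold change -2.54, SE 0.11). These correspond to 7.99% and 12.8% of the wild-type mean. Zm00001eb383700 had 0.618 and 0.832 FPKM in the mutant, against 20.5 and 5.87 FPKM in the wild type (log2 fold change -2.82, SE 0.49). Its wild-type libraries differed over 2-fold from each other, so the size of its fall is uncertain, although both exceeded both mutant libraries.

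Zm00001eb384280, the member with a known place, is annotated under carbohydrate metabolism by the study and was on its list of highly expressed changed genes, which was partly chosen on these libraries. It had 9.85 and 10 FPKM in *zmnac128 zmnac130*, against 41.6 and 41.7 FPKM in the wild type (log2 fold change -1.96, SE 0.09). The mutant mean was 23.9% of the wild-type mean, and the genotypes were far apart compared with the spread within either.

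Several weakly expressed members gave almost no reads in the mutant. Apart from Zm00001eb385580, the genes given here fall outside the rule for named genes and were picked after their values were seen. Zm00001eb385580 had 0 and 0.0238 FPKM in the mutant, against 6.46 and 7.23 FPKM in the wild type, that is 0 and 1 read against 264 and 273. Zm00001eb383960 had 0.0186 and 0 FPKM in the mutant, against 1.38 and 2.76 FPKM in the wild type, or 1 and 0 reads against 69 and 127. Single reads separated these genes from 0 in the mutant. Zm00001eb382860 was at 0 in both mutant libraries, against 2.32 and 4.25 FPKM in the wild type. Zm00001eb386080 was at 0 in both mutant libraries as well, against 2.10 and 2.66 FPKM in the wild type. Set against a floor of 3 reads per mutant library, their mutant levels were at least 12.9-fold and 14.3-fold lower. Zm00001eb383540 had 0.117 and 0.294 FPKM in the mutant, against 4.39 and 4.80 FPKM in the wild type. The pseudocount of 1 FPKM compresses the log2 fold changes of all these genes, and that of Zm00001eb385580 was -2.95 for 0.174% of the wild-type mean.

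Smaller falls were also seen and are given by their means. Among those with a wild-type mean of at least 10 FPKM, Zm00001eb386020 averaged 15.9 FPKM in the mutant and 53.5 FPKM in the wild type (log2 fold change -1.69). Zm00001eb385590 averaged 7.61 FPKM in the mutant and 24.2 FPKM in the wild type (log2 fold change -1.55). Zm00001eb384200 averaged 5.75 FPKM in the mutant and 16.7 FPKM in the wild type (log2 fold change -1.38). These genes, like Zm00001eb385100 with 7.30 FPKM in the mutant and 19.1 FPKM in the wild type (log2 fold change -1.29), kept 29.7% to 38.2% of the wild-type mean. They too are named here for their values and not by the rule. The members called lower that are given no value in the text had wild-type means of 1.93 to 6.21 FPKM and log2 fold changes from -2.18 to -1.04.

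**Figure D2:**
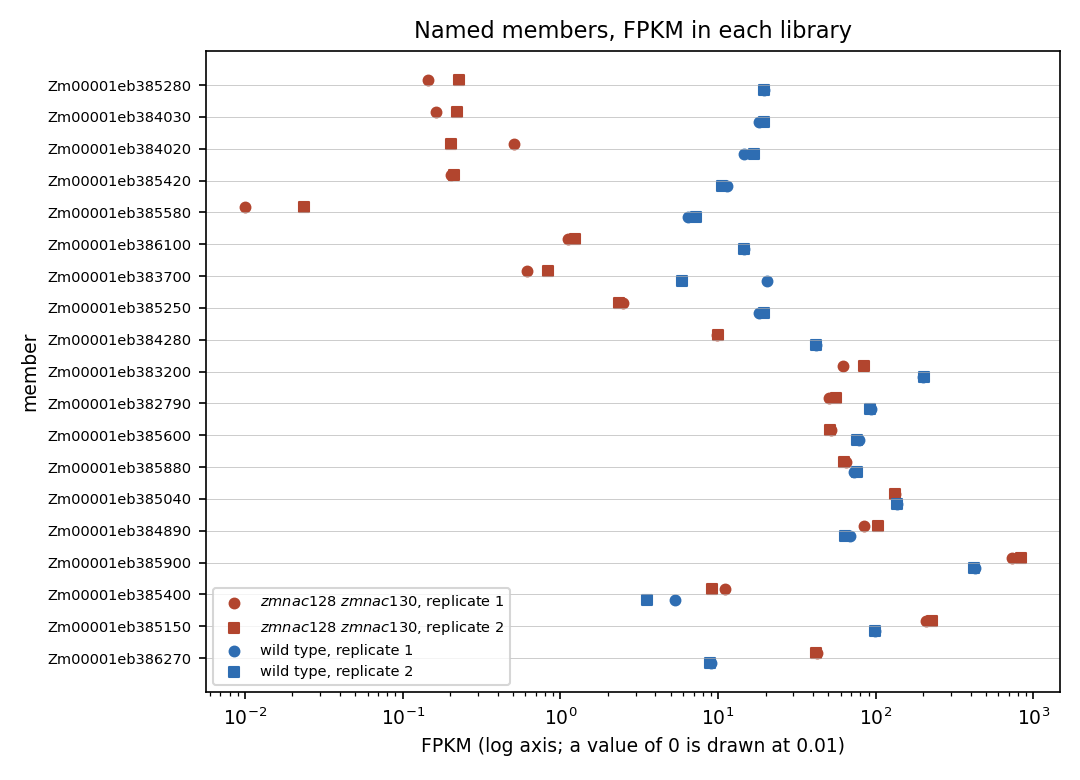
FPKM of the 19 members named by rule in each of the 4 libraries (log axis, a value of 0 drawn at 0.01), with *zmnac128 zmnac130* in red above wild type in blue and a symbol for each replicate. From Zm00001eb385280 down to Zm00001eb386270 the log2 fold change increases, and the last 5 genes are higher in the mutant, as Zm00001eb386270 with 42.4 and 41.9 FPKM against 8.98 and 8.83 FPKM.

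The 4 members called higher were scattered along the stretch. Zm00001eb386270, its last member, had 42.4 and 41.9 FPKM in *zmnac128 zmnac130*, against 8.98 and 8.83 FPKM in the wild type (log2 fold change 2.12, SE 0.09). Zm00001eb385150 had 207 and 226 FPKM in the mutant, against 98.9 and 98.2 FPKM in the wild type (log2 fold change 1.12, SE 0.09). Zm00001eb385400 had 11.0 and 9.10 FPKM in the mutant, against 5.31 and 3.56 FPKM in the wild type (log2 fold change 1.04, SE 0.19). None of these 3 genes had overlapping genotypes. The log2 fold change of Zm00001eb385400 fell below the threshold of 1 without replicate 2 of the wild type (0.80) or replicate 1 of the mutant (0.91). The other member called higher, Zm00001eb383060, lies outside the rule for named genes and had 8.44 and 7.57 FPKM in the mutant, against 2.92 and 3.76 FPKM in the wild type (log2 fold change 1.06, SE 0.15).

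The most abundant members differed in both directions. Zm00001eb385900 had 731 and 833 FPKM in the mutant, against 427 and 422 FPKM in the wild type, and its log2 fold change of 0.88 (SE 0.11) missed the fold threshold. Zm00001eb383200 went the other way and was called lower, with 61.7 and 84.0 FPKM in the mutant, against 199 and 203 FPKM in the wild type (log2 fold change -1.47, SE 0.15). Zm00001eb385040 had 133 and 133 FPKM in the mutant, against 136 and 136 FPKM in the wild type (log2 fold change -0.04, SE 0.08). Its mutant mean was 97.5% of its wild-type mean, in the middle of the stretch. Zm00001eb382790, the first member, had 50.4 and 55.6 FPKM in the mutant, against 93.2 and 91.8 FPKM in the wild type (log2 fold change -0.79, SE 0.09). Zm00001eb384890 had 84.7 and 103 FPKM in the mutant, against 68.7 and 63.9 FPKM in the wild type (log2 fold change 0.49, SE 0.12). Neither was called, and in neither did the genotypes overlap. Zm00001eb385600 had 52.0 and 51.2 FPKM in the mutant, against 77.9 and 76.4 FPKM in the wild type (log2 fold change -0.57, SE 0.08). Zm00001eb385880 had 64.8 and 63.2 FPKM in the mutant, against 72.4 and 76.4 FPKM in the wild type (log2 fold change -0.21, SE 0.08).

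The shift differed with the level of the gene. Among the 44 members with a mean of 1 to 5 FPKM, 36 were below 0 and the median log2 fold change was -0.56, against a median of -0.09 and 56.3% below 0 over all tested genes of that level. Among the 37 members from 5 to 20 FPKM, 24 were below 0 with a median of -0.54, against 0.02 and 48% over all tested genes of that level. Among the 19 members above 20 FPKM, 12 were below 0 with a median of -0.11, against 0.11 and 41.6% over all tested genes of that level. The median lay below that of genes of like level in each class.

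The order of the genotypes in the summed FPKM of the members depended on the most abundant member and on the scale. The sums were 2140 and 2327 FPKM in *zmnac128 zmnac130*, against 2176 and 2217 FPKM in the wild type, and overlapped. As a share of all FPKM of a library, they were 0.37% and 0.397% in the mutant, against 0.35% and 0.363% in the wild type, so that both mutant libraries were higher. Without Zm00001eb385900 they were 1409 and 1495 FPKM in the mutant, against 1749 and 1795 FPKM in the wild type, and both mutant libraries were lower. The 249 IDs of the stretch that were not members, 121 of them at 0 in all 4 libraries, summed to 17.8 and 18.3 FPKM in the mutant, against 28.3 and 32.9 FPKM in the wild type.

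Along the ID numbers, lower members were found from end to end. In 5 consecutive blocks of 20 members, the median log2 fold changes were -0.27, -0.48, -0.22, -0.49 and -0.57 in ID order. Members below 0 numbered 13, 15, 12, 16 and 16 in these blocks, and members called lower 7, 6, 6, 4 and 6. Each block held at least 4 called-lower members and no more than 1 called higher. The first member called lower was Zm00001eb382860 at place 3 and the last was Zm00001eb386190 at place 97.

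The signs nevertheless alternated often. The 100 members formed 36 runs of one sign. The longest run below 0 had 10 members, from Zm00001eb385980 to Zm00001eb386160, and the longest run above 0 had 5, from Zm00001eb384650 to Zm00001eb384890. Members called lower stood a median of 2 places apart, with up to 16 members between neighbouring calls. The counts of runs and of neighbouring calls were not compared with those of other gene orders, so they are a description only. Of the 99 pairs of consecutive members, 9 were both called lower, and in 4 pairs the IDs themselves were adjacent. These were Zm00001eb384020 with Zm00001eb384030 (log2 fold changes -3.64 and -4.06), Zm00001eb385420 with Zm00001eb385430 (-3.31 and -1.25), Zm00001eb385580 with Zm00001eb385590 (-2.95 and -1.55) and Zm00001eb386180 with Zm00001eb386190 (-1.24 and -1.03). Strong falls also stood beside members with little change, as Zm00001eb385280 (-4.12) beside Zm00001eb385260 (0.19).

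Members were sparse along the numbering. They made up 28.7% of the IDs of the stretch, while 42.9% of the IDs of the whole table met the same FPKM limits. Consecutive members were 3.52 ID steps apart on average, against 2.33 between such genes over the whole table. The widest gap was 21 steps, from Zm00001eb384370 to Zm00001eb384580.

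The ends of the stretch were not sharp in single genes. Just before it, Zm00001eb382750 had 4.89 and 1.54 FPKM in the mutant, against 2.61 and 3.78 FPKM in the wild type (log2 fold change -0.10). Zm00001eb382780 followed with 5.08 and 4 FPKM in the mutant, against 2.68 and 2.73 FPKM in the wild type (log2 fold change 0.58). Neither was called. The second member, Zm00001eb382810, had a log2 fold change of -0.10, and the last member but one, Zm00001eb386260, one of -0.18. Just after it, Zm00001eb386280 had 1.21 and 0.968 FPKM in the mutant, against 1.07 and 0.892 FPKM in the wild type (log2 fold change 0.08). Zm00001eb386290 had 28.8 and 28.4 FPKM in the mutant, against 23.1 and 21.1 FPKM in the wild type (log2 fold change 0.36). Neither of these was called either.

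In blocks of 20 genes meeting the same limits, the sides differed. Before the stretch, the nearest block had a median log2 fold change of -0.08 with 12 of 20 below 0 and 3 called lower. The next block outward, from Zm00001eb381630 to Zm00001eb382210, had a median of -0.42 with 14 of 20 below 0 and 5 called lower, values like those inside. The one beyond had a median of -0.07 with 11 of 20 below 0 and 2 called lower. After the stretch, the medians of the 3 blocks were 0.12, 0.17 and -0.04 going outward, with 8, 8 and 13 of 20 genes below 0. In these blocks 1 gene was called lower in all, and 2, 2 and 3 were called higher. Each of the blocks before the stretch had 1 gene called higher. Over all tested genes, 7.18% were called lower and 6.43% higher, so counts of 1 or 2 in 20 lie near those shares. Calls of lower genes were thus more frequent before the first member than after the last, while genes below 0 were found on both sides.

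The lower limit on FPKM also had members close to it. Zm00001eb384580 was kept with a mean of 1.01 FPKM, from 0.418 and 0.279 FPKM in the mutant and 1.79 and 1.57 FPKM in the wild type. Zm00001eb384940 was kept with a mean of 1.02 FPKM. Both kept genes were lower in both mutant libraries than in either wild-type library. Zm00001eb383080 was left out with a mean of 0.956 FPKM, from 0 and 0 FPKM in the mutant and 2.11 and 1.71 FPKM in the wild type. Zm00001eb383570 was left out with a mean of 0.926 FPKM, from 1.29 and 1.40 FPKM in the mutant and 0.668 and 0.347 FPKM in the wild type. The nearest genes left out thus pointed in opposite directions. No ID was left out by the upper limit.

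The stretch was then set beside stretches of equal size elsewhere, made by cutting the table in ID order into pieces of 100 genes that met the same FPKM limits. There were 189 such pieces including the stretch itself. Its median log2 fold change of -0.48 was the lowest, and those of the other 188 ran from -0.28 to 0.25 with an SD of 0.0935. Its 29 genes called lower were the most, against 0 to 20 with a median of 6 in the others. Its share below 0, 72%, compared with 34% to 67% in the others. These ranks come from the same values that chose the stretch and carry no test.

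The called-higher count of the stretch did not stand apart. It had 4 such genes, the others had 1 to 17 with a median of 6, and 62 of the others had 4 or fewer. The median absolute log2 fold change was 0.61 in the stretch, against 0.23 to 0.56 in the others. The stretch had 12 genes with a mutant mean under 10% of the wild-type mean, against up to 11 and a median of 1 in the others.

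**Figure D3:**
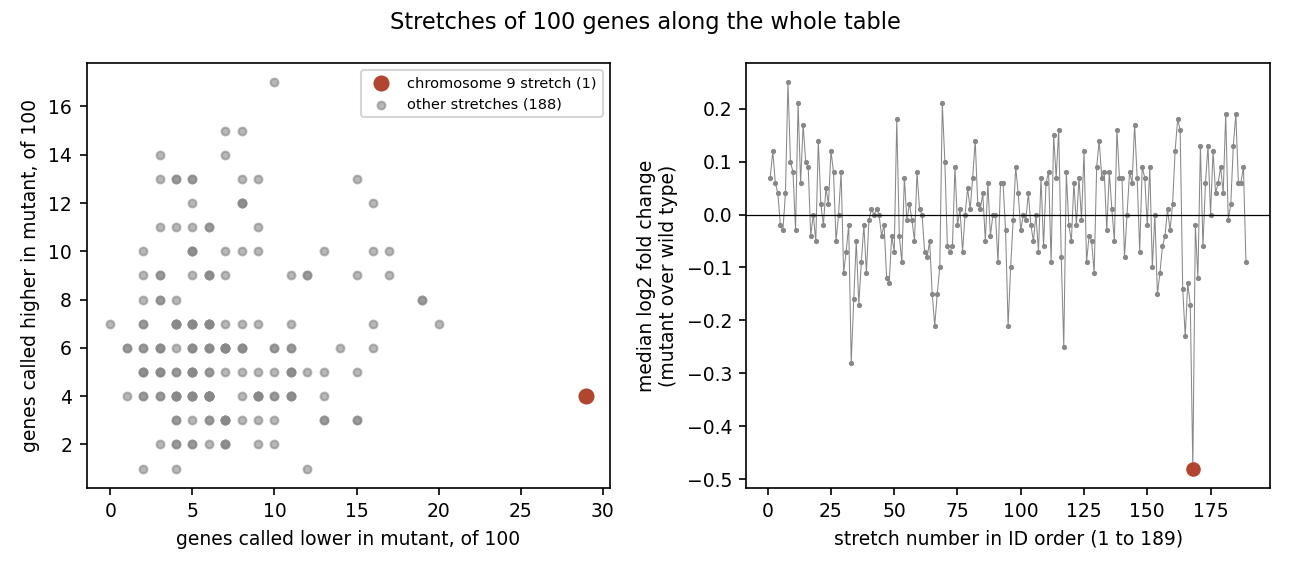
Left, number of genes called lower (horizontal axis) and higher (vertical axis) in *zmnac128 zmnac130* in the chromosome 9 stretch (red, 29 and 4) and in 188 other stretches of 100 genes (grey). Right, the median log2 fold change of each stretch in ID order, lowest in the chromosome 9 stretch at -0.48 and at -0.28 or above in the others.

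The other low stretches also leaned to lower calls, to differing degrees. The stretch from Zm00001eb072000 to Zm00001eb074200 had a median of -0.28 with 16 genes called lower and 12 called higher. The stretch from Zm00001eb265150 to Zm00001eb267740 had a median of -0.25 with 13 called lower and 4 called higher. The next in order, from Zm00001eb375320 to Zm00001eb377680, had a median of -0.23 with 20 called lower and 7 called higher, and its IDs lie before those of the chromosome 9 stretch around the chromosome 9 gene Zm00001eb377000. All 3 had fewer genes called lower than the chromosome 9 stretch, and the second had as many called higher. Of the pieces on either side, that from Zm00001eb379610 to Zm00001eb382780 had a median of -0.17 with 16 called lower and 6 called higher. That from Zm00001eb386280 to Zm00001eb388780 had a median of -0.02 with 6 called lower and 11 called higher. The piece before the stretch was thus 7th lowest of the 189 and the piece after it 72nd. Low medians continued further before the stretch. The piece from Zm00001eb377750 to Zm00001eb379590 had a median of -0.13 with 10 called lower and 6 called higher. That from Zm00001eb373060 to Zm00001eb375310 had a median of -0.14 with 17 called lower and 9 called higher. Every piece from Zm00001eb373060 up to the stretch thus had a median below 0.

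Other ways of cutting gave the same place in the order. With pieces spanning 349 IDs, which held 4 to 204 genes each, the stretch had the lowest median of 126, and the next was at -0.25. Among 18710 windows of 100 genes that started at any gene and shared none with the stretch, the lowest median was -0.31. That window started at Zm00001eb374380, among the pieces with low medians before the stretch.

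A measure that did not enter the choice of the stretch was the difference between replicates of one genotype. In the mutant, the median log2 ratio of FPKM + 1 in replicate 2 over replicate 1 was 0.013 over the members and 0.015 over all tested genes. In the wild type it was 0.077 over the members and 0.051 over all tested genes. The members thus stood near the other genes in both genotypes. On this scale of FPKM + 1, no member differed over 2-fold between mutant replicates (0 of 100), against 1.14% of all tested genes. Between wild-type replicates 2 members did, Zm00001eb383700 and Zm00001eb384180, against 0.676% of all tested genes. The added 1 FPKM hides larger ratios in weak members. Examples are Zm00001eb384020 with 0.506 and 0.204 FPKM in the mutant and Zm00001eb386040 with 1.5 and 3.55 FPKM in the wild type. In Zm00001eb384180, with 0 and 0.758 FPKM in the mutant, against 1.04 and 5.63 FPKM in the wild type, the SE of the log2 fold change was 0.56 and the gene was not called.

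Every mutant library gave the same direction against every wild-type library. In the 4 pairings, 70, 75, 69 and 76 members were below 0, with median log2 ratios of -0.44, -0.57, -0.35 and -0.47. The SD of these medians was 0.0918. Over all tested genes the medians of the pairings lay between -0.025 and 0.041. The pairings share libraries and are not independent.

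**Figure D4:**
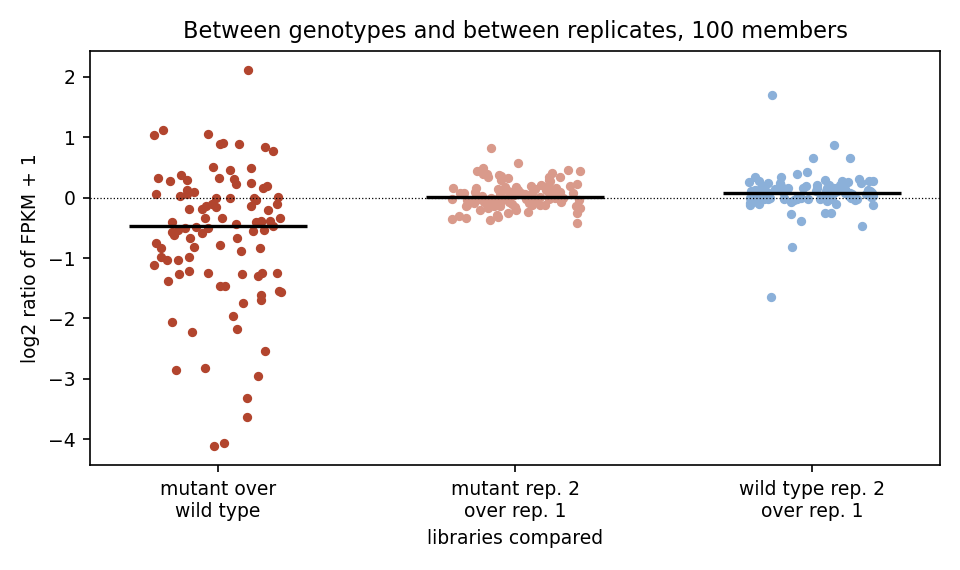
Log2 ratio of FPKM + 1 for each of the 100 members (points) between genotypes and between replicates 2 and 1 of *zmnac128 zmnac130* and of the wild type, with black lines at the medians. The median is -0.48 between genotypes, 0.013 between mutant replicates and 0.077 between wild-type replicates.

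The depth behind the members was uneven. The recovered reads of a member, summed over the 4 libraries, ranged upwards from 27 with a median of 1497, and 3 members had under 100. The gene lengths implied by the FPKM steps had a median of 1750 bases in the members called lower and 1960 bases in the other members, against 1869 bases over all tested genes. Levels of different members are compared above only as FPKM, which are per length.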

How the data were processed

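The authors deposited FPKM values of 44303 genes, made by HISAT2 alignment (version not given) of paired-end reads to the B73 genome, version 5. The read counting program is not stated. The 100 members and all lists were chosen with earlier results of these data known. The 19082 genes averaging 1 FPKM or more over 2 libraries per genotype were fitted on log2(FPKM + 1) with limma 3.58.1 (lmFit, eBayes with trend, two-sided, Benjamini-Hochberg adjustment) in R 4.3.3. The fold change understates changes of weakly expressed genes. The fit had 2 residual and 4.04 prior degrees of freedom. The study calls its samples independent, without naming plants, so p-values measure only the spread between these samples. FPKM steps gave whole reads, within 0.002 reads, for 100% of the 33589 genes above 0 (floors cover counting error only). Equal-sized stretches were cut across chromosome ends, since IDs are not paired with chromosomes. Alternatives were pseudocounts of 0.1 and 10, no filter or 10 FPKM, median-of-ratios scaling, eBayes without trend, a replicate block, leaving out libraries and all 6 columns. limma voom on recovered reads was added after the data had been seen. Named members were the 8 largest falls and rises called at 10 FPKM or more without overlap, the 8 highest means, members on the study's lists, both ends with their 2 outer neighbours, and members nearly off in 1 genotype. The procedure was tested on simulated data.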

Additional observations from a re-analysis of the deposited data

How the results depend on the processing

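Lower members outnumbered higher ones under every alternative run. In the main fit, the stretch had the lowest median of the equal-sized, equal-span and sliding stretches. This rank was not computed under the other pseudocounts, filters and fits. The median log2 fold change of the members was -0.60 with a pseudocount of 0.1 and -0.62 with limma voom, which called 33 members lower, and all 29 calls were kept by both. A pseudocount of 10 gave 10 members lower, 2 higher and a median of -0.18, with 307 genes lower and 305 higher in the whole table, since it compresses low values by construction. A filter at 10 FPKM kept 37 members and 8396 genes and gave 7 members lower, 2 higher, a median of -0.14 and 62.2% below 0, with 426 and 510 in the whole table. limma voom called 1874 genes lower and 1624 higher in the whole table. Leaving out 1 library at a time gave medians from -0.53 to -0.40 and 68% to 78% of the members below 0. The lone library had to be assumed to vary like the others, so counts of calls are not given for these fits. The extremes of the share below 0 were 78% without wild-type replicate 1 and 68% without wild-type replicate 2. With a replicate block 30 members were called lower, the 29 among them, 4 higher, and 1381 and 1251 genes in the whole table. The differences between replicates 2 and 1 correlated between genotypes at -0.078 across all tested genes and at 0.112 across the members, and no source says that a number marks a shared plant or day, so the numbers were not taken to pair the libraries. Of 239 comparisons of 19 named members, 0 reversed direction. Calls in fits with a lone library assume that it varies like the others, so kept calls are not counted. The call of Zm00001eb385400 was lost in 4 comparisons (log2 fold change 0.47 to 1 after rounding) and that of Zm00001eb385580 with a pseudocount of 10 (-0.75). The causes of these shifts were otherwise not tested. With 2 libraries per genotype, changes near 2-fold are at the limit of what can be called.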
